A study of Homo sapiens with 8 samples.

Results

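Interleukins are secreted proteins through which blood and immune cells signal to each other, and each acts through a receptor on the surface of the responding cell. The 6 genes described here are the interleukin genes IL6, IL18, IL23A and IL16 and the receptor genes IL10RA and IL1R1, out of 1950 genes in the authors' deposited table. They were taken by their gene names from that table, and the table itself was selected on the difference between the same libraries. No gene in it has a deposited p-value above 0.0499 or a deposited change under 1.5-fold in either direction. All differences of the 6 genes between the groups are therefore given as a description, with no test of their own. IL16 and IL1R1 lay nearest to that limit of the 6, with deposited log2 fold changes of −0.75 and 0.90, and IL6 lay farthest from it, with 2.80.

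The libraries came from K562, an established human chronic myeloid leukemia cell line. Of the 8 libraries, 4 were from cells given Caulis Polygoni Multiflori, a plant drug called the extract here, at 80 µg/mL for 3 days. The other 4 were from cells without it and are called control, with no vehicle and no time in culture stated for them. The libraries carry the numbers of their titles, extract 1 to 4 and control 2 to 5. Nothing in the labels says that they came from separate cultures, so the spread within a group may be technical. The series title names the question, which is the action of the drug on megakaryocyte and platelet formation and on PI3K and MAPK signaling.

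The values are expression values with 2 decimals whose unit was not stated. They are compared between groups within a gene. Values of different genes are put together only in the marker sums below, where the unstated unit limits the reading. Library totals over the 1950 genes ran from 13114 to 14134 and are not depths, since the list is partial. No counts were given, so the depth is unknown and no counting error can be attached to a value. Log2 differences below are extract minus control on the log2(value + 1) scale, with a standard error (SE) from the 4 libraries of each group, and they understate the change of low genes. A filter on low values, at least 1 in at least 4 libraries, left 750 of the 1950 genes, and all 6 interleukin genes passed it. IL6 passed through the extract libraries alone (4 of 4 at or above 1, against 0 of 4 controls), so its passing already implies a difference.

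The interleukin-6 and interleukin-10 receptors and the receptor for interleukin-23 signal through JAK kinases to STAT transcription factors, and STATs in turn switch on the SOCS feedback inhibitors. The receptors for interleukin-1 and interleukin-18 signal through the adaptor MYD88 to the transcription factor NF-kB. In blood, interleukin-6 supports the growth of megakaryocytes and plasma cells and drives the acute phase response of the liver.

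With the extract, the secreted cytokine IL6 and the receptors IL10RA and IL1R1 had more RNA, and the cytokine genes IL18, IL23A and IL16 had less. The 6 genes thus divided 3 higher and 3 lower, and in each of them all 4 extract libraries lay on 1 side of all 4 control libraries. Among all 750 genes passing the filter, the groups were separated in this way with the extract higher for 21.9% and lower for 45.9%, so such a separation is common in this table. In limma, the 3 higher and the 3 lower genes had an adjusted p under 0.05, as did 26.8% (higher) and 56.0% (lower) of the 750 genes. With a block on the library numbers that both groups share, IL23A was not called, beside 161 genes called higher and 354 lower of the 750. Nothing is read from these counts, since the genes were listed because they differ. The median log2 difference was −0.14 over the 6 genes and −0.50 over the 750. The value for the 6 falls between the 3 higher and the 3 lower genes and describes none of them. RNA was taken from whole cultures, so a change in the share of cells that express a gene and a change per cell cannot be told apart.

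**Figure D1:**
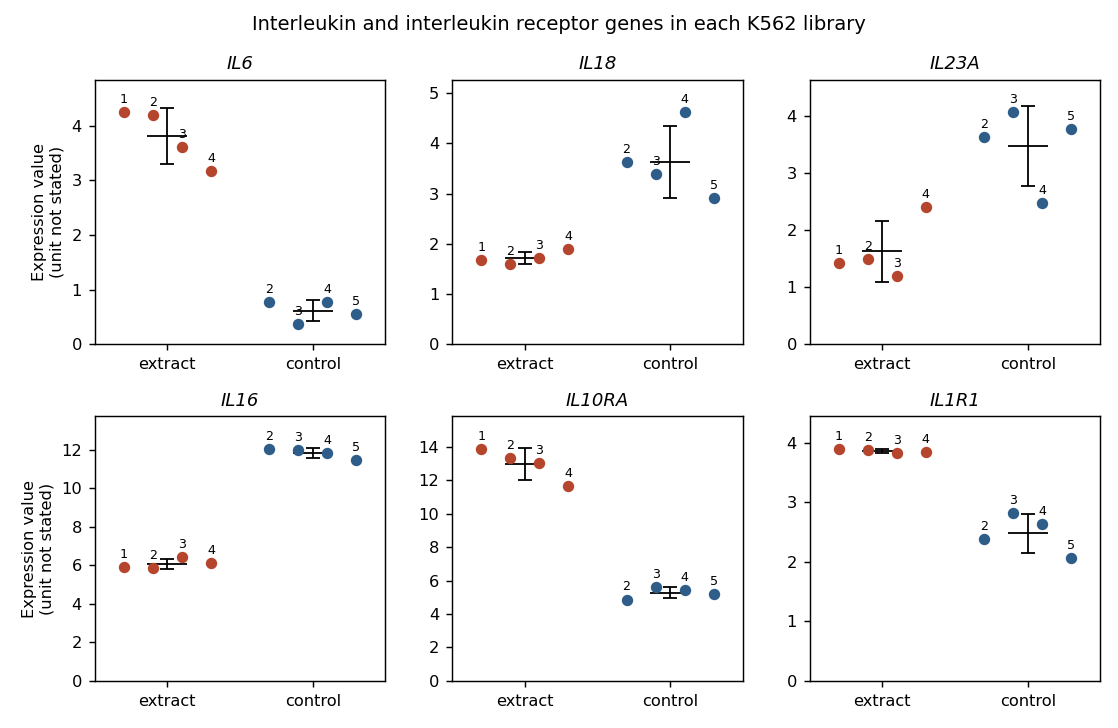
Expression value (vertical axis, unit not stated, a separate scale for each gene, starting at 0) of each interleukin and receptor gene in each library. Points are libraries with their numbers, horizontal lines are group means and bars are ± 1 SD (n = 4 each). IL6, IL10RA and IL1R1 are higher with the extract, IL18, IL23A and IL16 lower, and the groups come closest in IL23A (2.41 in extract 4, 2.47 in control 4).

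The promoters of IL6, IL23A and IL10RA are printed because each of these genes has 1 annotated promoter in the RefSeq table and because IL6 and IL10RA were higher with the extract while IL23A was lower. Each line holds the 250 bases before the RefSeq start on the plus strand (RefSeq, GRCh38.p14), chr7:22726950-22727199 for IL6, chr12:56338634-56338883 for IL23A and chr11:117989695-117989944 for IL10RA. Capitals mark every match to 7 motifs searched on both strands: NF-kB by its name, AP-1 as TGANTCA, the core of the cyclic AMP response element (CRE) as GACGTCA, C/EBP as TTGCNCAA, the STAT-binding GAS element as TTCNNNGAA, the TATA box as TATAAA and GATA as AGATAA. None of the matches in these windows overlap.
IL6: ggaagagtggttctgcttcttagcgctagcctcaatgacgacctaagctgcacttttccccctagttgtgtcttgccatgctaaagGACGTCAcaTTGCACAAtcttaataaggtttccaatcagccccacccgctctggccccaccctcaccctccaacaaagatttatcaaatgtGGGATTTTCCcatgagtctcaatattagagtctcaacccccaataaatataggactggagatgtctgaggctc
IL23A: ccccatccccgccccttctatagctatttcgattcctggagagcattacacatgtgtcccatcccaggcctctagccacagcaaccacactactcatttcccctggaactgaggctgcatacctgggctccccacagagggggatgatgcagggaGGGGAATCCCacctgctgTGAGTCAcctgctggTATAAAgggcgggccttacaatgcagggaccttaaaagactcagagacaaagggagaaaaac
IL10RA: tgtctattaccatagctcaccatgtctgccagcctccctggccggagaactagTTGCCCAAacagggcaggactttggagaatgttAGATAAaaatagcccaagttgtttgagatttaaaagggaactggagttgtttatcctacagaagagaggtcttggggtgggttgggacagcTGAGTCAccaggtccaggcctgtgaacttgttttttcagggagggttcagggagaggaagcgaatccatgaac

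In the IL6 window the CRE core lies 164 to 158 bases before the start, the C/EBP match 155 to 148 and the NF-kB match 73 to 64 bases before it. The IL23A window holds an NF-kB match 95 to 86 bases before the start, then an AP-1 match at 77 to 71 and a TATA box at 62 to 57. The IL10RA window holds a C/EBP match 197 to 190 bases before the start, a GATA match at 164 to 159 and an AP-1 match at 73 to 67. The NF-kB motif is thus shared by IL6 (higher with the extract) and IL23A (lower), the AP-1 motif by IL10RA (higher) and IL23A (lower), and the C/EBP motif by IL6 and IL10RA (both higher). Nothing is read from these matches about either direction. No GAS match is in any of the 3 windows, which says only that these letters are not there. Of 35116 RefSeq promoter windows of the same length, 9.96% held the NF-kB motif, 6.57% the AP-1 motif, 3.12% the CRE core, 2.27% the C/EBP motif, 6.57% the GAS motif, 10.7% the TATA box and 9.17% the GATA motif. The promoter table matched 5 of the 6 genes, with 9 windows, of which IL16 has 2 and IL1R1 has 4. Of those 6 windows, 1 of IL1R1 held matches, among them a GAS match 47 to 39 bases before its start.

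IL6 (chromosome 7, 22725884 to 22732002, GRCh38), the gene of the cytokine interleukin-6, showed the largest difference of the 6. Its values were 4.25, 4.20, 3.61 and 3.17 in extract 1 to 4, against 0.77, 0.37, 0.77 and 0.55 in control 2 to 5. Every extract value was at least 4.12 times every control value, and no control library reached 1. The means were 3.81 ± 0.515 with the extract and 0.615 ± 0.194 in control (SD, n = 4 each), a ratio of 6.19. The log2 difference was 1.58 (SE 0.119), the third in size among the 255 genes with a positive difference. With a pseudocount of 0.1 in place of 1 it was 2.49, because the control values are low. The authors' deposited table gives IL6 a log2 fold change of 2.80 with an adjusted p of 9.56e-18.

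IL18 (chromosome 11, 112143251 to 112164117) codes for a cytokine of the interleukin-1 family that is made as an inactive precursor and cut by caspase-1, and that stimulates interferon-gamma release. Its values were 1.68, 1.60, 1.71 and 1.89 in the extract libraries, against 3.62, 3.39, 4.62 and 2.92 in the controls. The extract libraries lay close together, with a coefficient of variation of 7.12%, while the controls varied by 19.7% around their mean. The means were 1.72 ± 0.123 with the extract and 3.64 ± 0.717 in control (SD, n = 4 each), and the log2 difference was −0.76 (SE 0.113). In the authors' deposited table its log2 fold change was −1.03 with an adjusted p of 0.000117.

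IL23A (chromosome 12, 56334174 to 56340410) codes for the chain of interleukin-23 that pairs with the product of IL12B, and the cytokine sustains T helper 17 cells. Its values were 1.43, 1.49, 1.19 and 2.41 in the extract libraries, against 3.63, 4.07, 2.47 and 3.77 in the controls. The groups were separated by only 0.06, because extract 4 was the highest of its group and control 4 the lowest of its own. The means were 1.63 ± 0.536 with the extract and 3.49 ± 0.701 in control (SD, n = 4 each), and the log2 difference of −0.78 had the widest standard error of the 6 genes, 0.184. Its deposited adjusted p, 0.0067, was the highest of the 6 in the authors' deposited table, beside a log2 fold change of −1.05.

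IL16 (chromosome 15, 81159575 to 81314058) codes for a precursor whose released end attracts cells that carry CD4. Its values were 5.92, 5.87, 6.45 and 6.13 in the extract libraries, against 12.05, 12.01, 11.83 and 11.49 in the controls. Both groups were tight, with coefficients of variation of 4.33% with the extract and 2.16% in control, and the nearest libraries differed by 5.04. The means were 6.09 ± 0.264 with the extract and 11.8 ± 0.255 in control (SD, n = 4 each), and the log2 difference was −0.86 with the smallest standard error of the 6 genes, 0.0302. The authors' deposited log2 fold change of −0.75 is smaller in size than the log2 ratio of the means, −0.96.

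IL10RA (chromosome 11, 117986348 to 118003037) codes for the ligand-binding chain of the interleukin-10 receptor, which works with the chain made by IL10RB. Its values were 13.88, 13.34, 13.03 and 11.67 in the extract libraries, against 4.87, 5.61, 5.43 and 5.19 in the controls. Every extract library was at least 2.08 times every control library, although extract 4 stood somewhat below the others. The ratio of means was 2.46 and the log2 difference 1.16 (SE 0.062), the eleventh in size among the 255 genes with a positive difference. By deposited p-value IL10RA was number 23 of the 1950 genes in the authors' deposited table, ahead of the other 5 interleukin genes.

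IL1R1 (chromosome 2, 102064544 to 102179874) codes for the receptor that binds interleukin-1 alpha and beta and recruits the co-receptor made by IL1RAP. Its values were 3.90, 3.88, 3.83 and 3.84 in the extract libraries, against 2.39, 2.83, 2.64 and 2.06 in the controls. The extract libraries were nearly identical, with a coefficient of variation of 0.855%, whereas the controls varied by 13.4%. The means were 3.86 ± 0.033 with the extract and 2.48 ± 0.333 in control (SD, n = 4 each), a ratio of 1.56. The log2 difference of 0.49 (SE 0.0703) was the smallest of the 6 genes and ranked 166 of the 255 positive ones. The authors' deposited table gives a larger ratio, 1.87. For IL16 and IL1R1 the deposited log2 fold change and the log2 ratio of means differed by 0.211 and 0.265 and for IL6 by 0.171. A gap of at least 0.2 was present in 17.1% of 747 genes that passed the filter and had values above 0 in both groups.

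**Figure D2:**
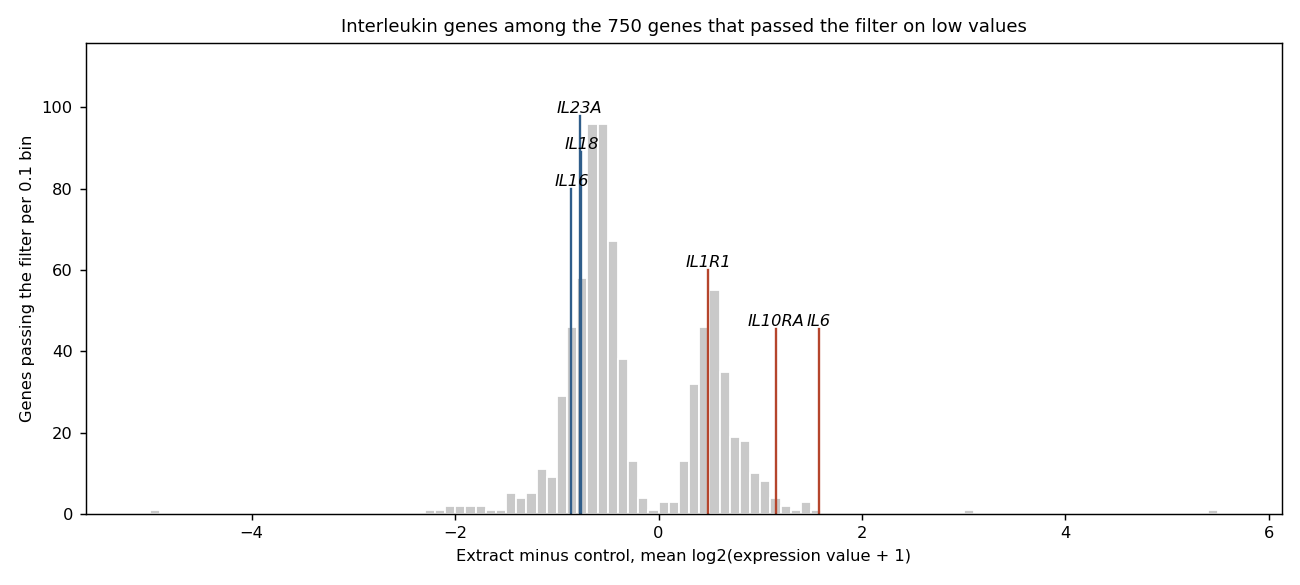
Number of genes (vertical axis) by log2 difference between extract and control in bins of 0.1 (horizontal axis, mean log2(expression value + 1), extract minus control) for the 750 genes passing the filter, with the 6 interleukin and receptor genes as lines. The few genes around 0 show that the table was selected for differences. IL6 at 1.58 is the third gene from the right end, IL1R1 at 0.49 within the bulk of the positive genes and IL16, IL23A and IL18 between −0.86 and −0.76 within the negative ones.

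The 6 genes did not all vary alike from library to library. Extract 4 was the extract library nearest to the control mean in IL6, IL18, IL23A and IL10RA, 4 of the 6 genes, while over the 750 genes it was the nearest in 22.7%. Extract 3 was the nearest for IL16 and IL1R1. The 6 genes were measured in the same libraries and are not independent, so nothing is read from these counts. Profiles were compared among the genes passing the filter that have a symbol, leaving out pseudogenes and clone-based names. Over the 8 libraries the profile of IL16 was most like those of ANXA1, TMSB4X and S100A16. The root mean square differences were 0.0415, 0.0618 and 0.0666 (log2 values centred on each gene's mean). ANXA1 codes for the phospholipid-binding protein annexin A1 and TMSB4X for the actin-binding peptide thymosin beta 4. IL10RA was nearest to MYC (0.0964), the growth-promoting transcription factor gene, then to HSPA1B (0.10) and ESPN (0.13). IL1R1 was nearest to TFAP2B, BAIAP2-DT and DNASE1L2 (0.0604 to 0.0856). IL18 was nearest to SELPLG, MLLT11 and RNASE1 (0.118 to 0.131), and IL23A to RAB3A, PPP2R5B and STC2 (0.146 to 0.177). No such gene was so close to IL6, with ESPN, MYC and HSPA1B at 0.236 to 0.325, and genes without a symbol were not searched. These distances rest on 8 libraries that share 2 groups, so they mostly compare the size of the group difference.

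Few other genes of these pathways were in the table. Of 93 interleukin and interleukin receptor genes looked for, 8 were listed, the 6 genes above with CXCR2 and IL17RE. CXCR2, a receptor of interleukin-8, was listed at 0 in all 4 extract libraries and had 0.02, 0.02, 0.72 and 0 in the controls, so its difference rests on control 4. IL17RE, a receptor chain for interleukin-17C, had 0.32, 0.35, 0.18 and 0.22 in the extract libraries, against 0.90, 1.48, 1.21 and 0.20 in the controls. Control 5 lay within the extract range of IL17RE, so the groups overlapped. Both genes failed the filter on low values and had deposited adjusted p-values above 0.05 in the authors' deposited table (0.134 for CXCR2 and 0.324 for IL17RE). The genes of the partner chains and ligands, IL6R, IL6ST, IL10, IL10RB, IL1A, IL1B, IL1RAP, IL18R1, IL12B and IL23R, are absent from the listed genes, so they were not analysed here.

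In the JAK and STAT list 4 of 25 genes were in the table, PIM1, CISH, SOCS3 and SOCS1, and all 4 were called higher with the extract in limma (adjusted p under 0.05), beside 26.8% of all 750 genes called higher. As for the interleukin genes, nothing is read from calls in these lists, since the table was selected on the same contrast. SOCS3 is the feedback inhibitor that STAT3 induces downstream of interleukin-6 and interleukin-10. SOCS3 had 9.19, 8.97, 9.07 and 9.09 in the extract libraries, against 6.19, 6.27, 5.40 and 6.50 in the controls. Its ratio of means, 1.49, was below those of PIM1 (1.89), CISH (1.91) and SOCS1 (1.85). A link of these 4 genes to IL6 or IL10RA was not tested. In the MYD88 and NF-kB list 1 of 32 genes was in the table, the inhibitor of apoptosis gene BIRC3, an NF-kB target, and it failed the filter. BIRC3 had 0.42, 0.54, 0.29 and 0.41 in the extract libraries, against 0.80, 0.96, 0.77 and 1.00 in the controls, all extract values below all controls. None of the 16 genes that process or bind interleukin-1, interleukin-16 and interleukin-18 was listed (0 of 16), among them CASP1 and IL18BP.

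Related cytokine families were thinly listed as well. Of 27 colony stimulating factor and interleukin-6 family genes, CTF1, which codes for cardiotrophin-1, was listed. CTF1 had means of 0.838 ± 0.1 with the extract and 1.48 ± 0.217 in control (SD, n = 4 each), and it passed the filter through the control libraries alone (0 of 4 extract libraries at or above 1, against 4 of 4 controls), so its passing already implies a difference. Of 57 chemokine and chemokine receptor genes, not counting CXCR2 (placed with the interleukin receptors above), 3 were listed. They were ACKR2, CXCL16 and CX3CR1, 1 higher and 2 lower in the authors' deposited table. ACKR2 passed the filter, with overlapping groups, and the other genes were below it. Of 46 genes of the TNF and TNF receptor families 5 were listed, 3 higher and 2 lower in the authors' deposited table, and 1 of them, TNFSF13B, which codes for the B-cell survival factor BAFF, passed the filter. TNFSF13B had 1.78, 1.78, 2.47 and 2.42 in the extract libraries, against 3.38, 6.58, 3.23 and 5.36 in the controls.

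IL6 shares its locus with the antisense gene IL6-AS1 (chromosome 7, 22725395 to 22727620), which was also in the table, with every extract library above every control. IL6-AS1 had 0.42, 0.36, 0.37 and 0.23 in extract 1 to 4, against 0.11, 0.17, 0.14 and 0.10 in control 2 to 5. Its ratio of means was 2.65, at levels that failed the filter, with a deposited adjusted p of 0.32 in the authors' deposited table. The spans of the genes overlap by 1737 bases and their annotated exons by 428 bases (GENCODE 29). The sources used here do not say whether the library kit kept strand information, so reads of IL6 and IL6-AS1 in that stretch cannot be told apart. IL6 also overlaps STEAP1B by 46 exonic bases, and STEAP1B was not in the table.

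Close to IL16, the gene CFAP161 ends 10.4 kb before the annotated start of IL16 on the same strand and was lower with the extract as well. CFAP161, which codes for a protein of cilia, had 6.15, 4.85, 6.08 and 3.67 in the extract libraries, against 11.55, 11.52, 11.01 and 14.88 in the controls. It was the only listed gene of 10 annotated genes within 100 kb of IL16. The exons of STARD5, on the other strand, share 4351 of the 12094 exonic bases of IL16, and STARD5 was not in the table, so part of the IL16 value could come from reads of STARD5 if strand was not used. No listed gene lay within 100 kb of IL18, IL23A, IL10RA or IL1R1 (0 for each). The noncoding gene IL10RB-DT was listed too, a gene singled out after its values were seen. IL10RB-DT had 0.59, 1.41, 0.70 and 0.88 in the extract libraries, against 0.33, 0.39, 0.59 and 0.23 in the controls, with extract 1 and control 4 at the same value. IL21-AS1, singled out in the same way, had 0.02, 0.02, 0.04 and 0.08 in the extract libraries, against 0.17, 0.14, 0.16 and 0.17 in the controls, all extract values below all controls. Both failed the filter on low values. The adjusted p in the authors' deposited table was 0.00159 for IL10RB-DT and 0.36 for IL21-AS1.

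**Figure D3:**
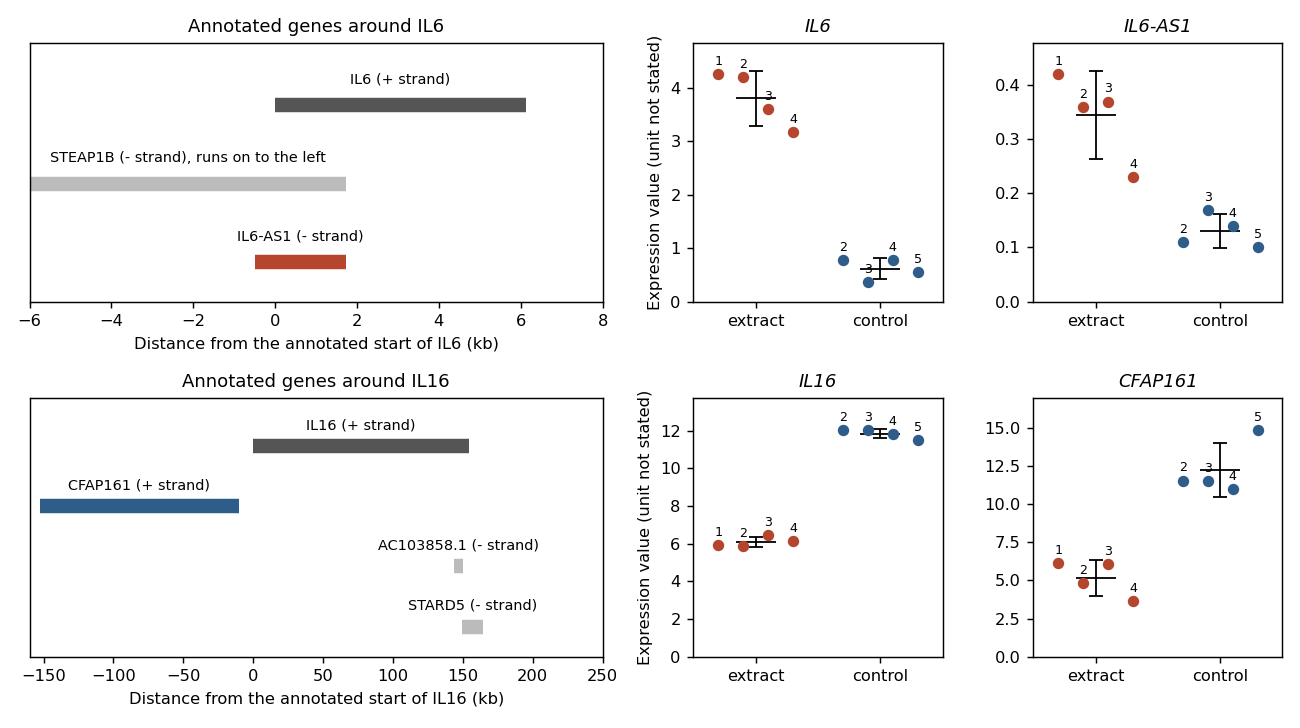
Left, annotated spans of genes around IL6 (top) and IL16 (bottom) by distance in kb from the start of each. Dark grey marks IL6 or IL16, colour a neighbour in the deposited table and light grey a neighbour not in it. Right, expression values (unit not stated, axes from 0) of the gene and its listed neighbour, with points for libraries, lines for means and bars for ± 1 SD (n = 4 each). IL6 and IL6-AS1 are both higher with the extract, and IL16 and CFAP161 are both lower.

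Markers of several cell types differed between the groups beside the interleukin genes. Of 12 monocyte and macrophage markers 2 were listed, CD68 and SPI1, with summed values of 18.88 to 22.73 in the extract libraries and 31.88 to 33.28 in the controls. Of 12 T-cell markers 2 were listed, CD3D and CD7, with sums of 18.62 to 22.87 with the extract and 40.38 to 44.51 in control, nearly all from CD3D. Of 14 megakaryocyte markers 2 were listed, GP1BB and ITGA2B. Their sums, nearly all from GP1BB, overlapped, at 45.88 to 59.35 with the extract and 55.45 to 119.67 in control. ITGA2B by itself did not overlap, with 1.64 to 2.53 with the extract and 2.7 to 4.44 in control. Of 12 fibroblast and endothelial markers 2 were listed, PECAM1 and COL1A1. Their sums overlapped, at 1.49 to 2.51 with the extract and 2.47 to 3.68 in control, as did PECAM1 by itself. COL1A1, which failed the filter, did not overlap, with 0.24 to 0.36 with the extract and 0.47 to 0.67 in control. Of 16 K562 and erythroid markers 2 were listed, SLC4A1 and HBZ, a globin gene typical of K562, which had 4951.9 to 5306 with the extract and 2834.06 to 2920.21 in control. The part of these markers in the values of the 6 interleukin genes was not tested.

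The 6 differences kept their direction under the choices tried, while their size changed. Since the groups did not overlap in any of the 6 genes, another pseudocount or fewer libraries could not reverse a direction. Only the centring could have done so. The median of the 750 genes was lower in the extract libraries by a shift of −0.27 (log2). Centring each library on it raised the 3 positive differences and shrank the 3 negative ones. Since most of the genes in the table were selected as lower, the centring is itself set by the selection. Relative to this shift the log2 difference was 1.84 for IL6, 1.42 for IL10RA, 0.75 for IL1R1, −0.49 for IL18, −0.51 for IL23A and −0.59 for IL16. For IL1R1, IL18 and IL23A that is a change of over 1.5 times.

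**Figure D4:**
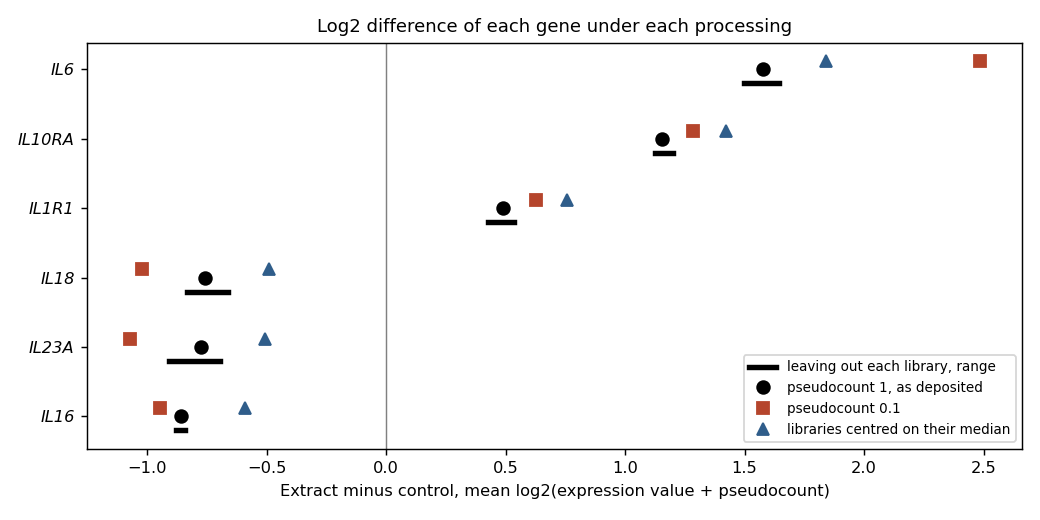
Log2 difference between extract and control (horizontal axis, extract minus control) of each gene with a pseudocount of 1 on the values as deposited (circles), with a pseudocount of 0.1 (squares), after centring each library on its median (triangles) and as the range over 8 fits that each leave out 1 library (bars). IL6, IL10RA and IL1R1 stay above 0 and IL18, IL23A and IL16 below 0 in all of them. Only the centring could have changed that, since the groups do not overlap. IL6 moves most with the pseudocount, from 1.58 to 2.49.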

How the data were processed

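RNA was sequenced in 8 libraries of K562 cells. HISAT2, StringTie and GRCh38 are named in the submitters' processing notes, with no version or role. The authors deposited 1 table with an expression value per gene and library, whose unit and normalization were not stated, and the group means. The same deposited table holds the fold change (the extract to control ratio) with its log2 value, and a raw and an adjusted p-value. The sources used here do not name the tool behind them.

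From these values, group means, SDs, ratios of means and differences of log2(value + 1) were computed. limma 3.58.1 (R 4.3.3, trended and robust empirical Bayes) was fitted to the 750 genes with at least 1 in at least 4 libraries, over both groups. Adjustment was by Benjamini-Hochberg at 0.05. The same fit was run on simulated data in which most genes were unchanged. The deposited table was selected for changed genes, so that run does not check the calls made here. The limma calls serve only as background, since the table was selected on this contrast. The genes and gene lists were chosen with earlier results of these data known. Other genes were named by rule, namely listed members of the gene lists (up to 6 by lowest deposited p-value), the 3 nearest profiles per gene and listed genes within 100 kb. The nearest profiles were taken from genes with a symbol, leaving out pseudogenes and clone-based names. Positions come from GENCODE 29 by gene ID and promoters from RefSeq by symbol, both on GRCh38. Alternatives were a pseudocount of 0.1, median centring, no filter, leaving out each library and a block on the numbers that both groups share. The B-cell marker list is not reported here.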

Additional observations from a re-analysis of the deposited data

Results flagged for a closer look

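Of 52 groups of 4 libraries, from the 6 interleukin and receptor genes, their neighbours, the nearest profiles and the other genes with an interleukin name, 3 contained 1 library well apart from its group. About 2.6 such groups arise by chance. None of the 3 was in an interleukin or receptor gene of the 6. CFAP161, the neighbour of IL16, was highest in control 5 at 14.88, with the other controls at 11.01 to 11.55. TMSB4X was lowest in control 2 at 1072.78, with the other controls at 1133.12 to 1142.55. DNASE1L2 was lowest in extract 4 at 2.40, with the other extract libraries at 2.78 to 2.82.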

How the results depend on the processing

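All 6 genes kept their direction with a pseudocount of 0.1, with median centring, without each library in turn and with the replicate block. Only the centring could have reversed a direction, since the groups did not overlap in any of the 6. With a pseudocount of 0.1 the log2 differences were 2.49 for IL6, 1.28 for IL10RA, 0.63 for IL1R1, −1.02 for IL18, −1.07 for IL23A and −0.95 for IL16. With each library centred on its median they were 1.84, 1.42, 0.75, −0.49, −0.51 and −0.59 in the same order. Leaving out 1 library moved each by less than its spread, the widest range being −0.91 (without extract 4) to −0.69 (without extract 3) for IL23A. Of the 750 genes, 241 were called lower after median centring, against 420, and 228 higher, against 201. Without a filter 314 of 1950 genes were called higher and 567 lower.

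Extract 2, 3 and 4 share their numbers with controls. Deviations from the group means correlated at 0.075, 0.075 and 0.149 between same-numbered libraries (Pearson, across genes, which are not independent replicates). Extract 2, 3 and 4 each correlated best with the control of the same number. Between libraries of different number the values ran from −0.124 to 0.136, the highest for extract 1 with control 2. The labels give no shared culture, so whether the numbers mark pairs is not known, and the main comparison was left unpaired. With the replicate block on those 6 libraries, 5 of the 6 genes were called, without IL23A, and 161 genes were called higher and 354 lower. The values carry no counts, so how far low genes such as IL6 in control are limited by depth is unknown.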
